A study of Drosophila melanogaster with 12 samples.

Results

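The promoter and transcription start site regions, State 1 of the modENCODE model of 9 chromatin states, were taken from the deposited list of chromatin state regions. A region was a member when its state number was 1 and its chromosome was 2L, 2R, 3L, 3R or X. There were 7080 such regions of the 42126 regions of all states, after 99 State 1 regions on chromosome 4 and 71 on names of heterochromatic sequence were left out. The members comprised 1239 regions on 2L, 1478 on 2R, 1362 on 3L, 1665 on 3R and 1336 on X.

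The study profiled tagged histones in Drosophila melanogaster testis by chromatin immunocleavage (ChIC), in which an antibody brings micrococcal nuclease to the tagged protein and the released DNA is sequenced. The 4 groups carried H3-GFP (genotype nanos > Unpaired, H3-GFP), H3A31S-GFP (nanos > Unpaired, H3A31S-GFP), H3.3-GFP (nanos > Unpaired, H3.3-GFP) or H3.3S31A-GFP (nanos > Unpaired, H3.3S31A-GFP), with 3 libraries each and 12 in all. In H3A31S, alanine 31 of H3 was replaced by serine, the residue of H3.3, and in H3.3S31A the serine of H3.3 was replaced by alanine. Every group also carried Unpaired, a ligand of the JAK-STAT pathway, under a nanos driver, which is active in early germ cells, and by the study's methods also a heat-shock flippase. The drivers were not all the same: by those methods the H3A31S line, with its transgene on the third chromosome, was crossed separately to another nanos driver line than the other groups. The labels of all groups give 25 °C and males aged for about 2 days, whereas the methods state this for the groups other than H3A31S. Each replicate held 18 to 20 pairs of testes that had been chosen for large size and little differentiating germline. These testes are therefore tumors, in which the tagged histone is made by germ cells while untagged somatic cells are also present. The state list was not made from these testes: the modENCODE model was built in cultured Drosophila cells, so a State 1 label does not report the chromatin of a germ cell.

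State 1 is the state of active promoters, where nucleosomes next to the start site carry trimethylated lysine on the tail of H3. Promoters of broadly expressed Drosophila genes often hold the DNA replication-related element (DRE), bound by the factor DREF, or Motif 1, bound by M1BP. Promoters of developmentally regulated genes more often hold a TATA box at a fixed distance from the start site, or GAGA elements. Histone H3.3 is placed on DNA outside replication and is known for its presence at active genes, while H3 is placed behind the replication fork.

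Examples of both kinds of promoter on 2L are printed here, from 100 bases before the start site to 49 bases after it. These promoters were chosen after their values were seen, so they do not show how common each motif is. Capitals mark the DRE (TATCGATA), the core of Motif 1 (GGTCACAC) on either strand, or TATAAA. Positions count the start site as 0, and give the first base of the match as printed. In the longer windows searched below, a DRE or Motif 1 core was found at only 29.4% of protein-coding start sites of 2L in State 1. The 6 promoters that follow, all with such a match, lay under 2 State 1 regions each. They belong to Orc5, a subunit of the origin recognition complex (chr2L:13829737-13829886, plus strand), tkv, a type I receptor for BMP ligands (chr2L:5271335-5271484, minus strand), fzy, an activator of the anaphase-promoting complex (chr2L:16310856-16311005, plus strand), Mcm10, a replication factor (chr2L:21179833-21179982, plus strand), and the ribosomal protein genes RpL7 (chr2L:10200904-10201053, plus strand) and RpS13 (chr2L:8364613-8364762, minus strand).
Orc5: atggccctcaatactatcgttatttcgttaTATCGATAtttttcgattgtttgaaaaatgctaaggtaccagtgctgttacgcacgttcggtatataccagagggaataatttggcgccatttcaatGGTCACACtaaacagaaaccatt
tkv: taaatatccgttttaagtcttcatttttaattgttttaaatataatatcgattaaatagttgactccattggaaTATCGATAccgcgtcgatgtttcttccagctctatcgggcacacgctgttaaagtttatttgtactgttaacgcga
fzy: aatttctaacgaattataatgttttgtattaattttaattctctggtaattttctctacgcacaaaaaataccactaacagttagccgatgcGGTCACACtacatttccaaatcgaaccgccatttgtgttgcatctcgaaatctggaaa
Mcm10: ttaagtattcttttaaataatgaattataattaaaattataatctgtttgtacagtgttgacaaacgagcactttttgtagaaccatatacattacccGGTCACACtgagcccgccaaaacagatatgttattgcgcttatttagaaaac
RpL7: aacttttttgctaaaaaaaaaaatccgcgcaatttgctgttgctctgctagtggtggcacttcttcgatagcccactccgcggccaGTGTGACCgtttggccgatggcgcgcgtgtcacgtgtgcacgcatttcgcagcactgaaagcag
RpS13: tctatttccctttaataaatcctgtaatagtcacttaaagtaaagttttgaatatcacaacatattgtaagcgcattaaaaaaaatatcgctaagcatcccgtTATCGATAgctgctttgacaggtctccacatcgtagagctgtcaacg
The DRE began at -70 in Orc5, at -26 in tkv and at 3 in RpS13. The Motif 1 core began at 27 in Orc5, at -8 in fzy, at -2 in Mcm10 and, on the opposite strand, at -14 in RpL7.

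Outside State 1, 9.17% of protein-coding 2L start sites, replication-dependent histone genes left out, held TATAAA at -40 to -20 on the gene's strand. The next 5 promoters, most of them with such a match, lay under no State 1 region, and are shown for contrast. They belong to piwi, which acts in piRNA silencing in the germline (chr2L:10987371-10987520, minus strand), the transcription factor genes sna (chr2L:15478211-15478360, minus strand), slp1 (chr2L:3825575-3825724, plus strand) and wor (chr2L:15425531-15425680, minus strand), and the replication-dependent histone gene His2B:CG17949 (chr2L:21423559-21423708, minus strand).
piwi: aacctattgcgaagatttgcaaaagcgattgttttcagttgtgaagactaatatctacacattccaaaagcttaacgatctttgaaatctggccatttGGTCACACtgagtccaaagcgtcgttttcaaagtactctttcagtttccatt
sna: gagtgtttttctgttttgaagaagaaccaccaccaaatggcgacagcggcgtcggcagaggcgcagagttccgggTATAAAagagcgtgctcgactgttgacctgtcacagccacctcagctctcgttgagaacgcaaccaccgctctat
slp1: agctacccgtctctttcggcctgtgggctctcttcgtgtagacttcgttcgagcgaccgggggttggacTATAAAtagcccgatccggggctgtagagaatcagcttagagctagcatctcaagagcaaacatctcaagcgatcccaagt
wor: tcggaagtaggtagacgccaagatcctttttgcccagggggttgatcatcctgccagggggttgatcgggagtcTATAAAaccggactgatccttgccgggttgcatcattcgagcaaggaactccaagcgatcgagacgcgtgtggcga
His2B:CG17949: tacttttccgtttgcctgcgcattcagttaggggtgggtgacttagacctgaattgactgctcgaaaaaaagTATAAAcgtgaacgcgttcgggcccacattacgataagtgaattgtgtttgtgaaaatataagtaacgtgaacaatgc
TATAAA began at -25 in sna, at -31 in slp1, at -26 in wor and at -28 in His2B:CG17949. The promoter of piwi differed from the other 4, with a Motif 1 core at -2 and no TATAAA, although its start site was in State 7 in both of the regions over it. All positions are those of dm6, and the bases were read from the RefSeq sequence of that assembly.

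State 1 regions were short and scattered. Their median length was 1800 bp (quartiles 1200 and 3000 bp, range 200 to 22600 bp), against 2600 bp for regions of the other states on the same arms. They made up 17.2% of the regions on these arms and 7.26% of the summed length. A share of 7.44% was longer than 5 kb, against 29.1% in the other states. The arms were alike in length, with medians of 1800 bp on 2L, 2R and 3L and 2000 bp on 3R and X.

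Nearly every base of the list lay under a pair of regions, whose source the list does not name. Of the bases of State 1 regions, 80.3% lay under another State 1 region as well, 7.18% under State 2 (transcription elongation), 3.70% under State 3 (regulatory regions) and 2.49% under State 5 (active genes on X). By region, 85.0% had at least 50% of their length under another State 1 region, and 12.3% overlapped none. The regions are therefore not independent, and a read at such a base was counted in both. On X the second state was different: 10.4% of State 1 bases lay under State 5 and 0.111% under State 2, while on 2L, 9.90% lay under State 2 and 0.279% under State 5.

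The states beside State 1 followed the same pattern. Where a State 1 edge met a single abutting region, which held for 11011 of 14160 edges, that region was State 2 in 54.6%, State 5 in 14.6%, State 3 in 17.4% and State 9 (silent chromatin) in 9.05%. On the autosomal arms State 2 was the neighbor at 65.9% to 68.2% of such edges. On X it was the neighbor at 0.962%, and State 5 was at 70.9%.

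The label was checked against the annotated start sites (TSSs) of protein-coding transcripts on 2L, the arm on which the listed positions correspond to dm6. Of 3625 TSSs, 1452 were inside State 1 regions (40.1%, 95% Wilson interval 38.5% to 41.7%), 1222 of them under 2 regions and 230 under 1. State 9 came second, with 33.5% of TSSs, but it covered 11174 kb against 1758 kb for State 1. Per 10 kb covered there were 8.26 TSSs in State 1 and 0.695 to 1.80 in each of the other states.

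From the side of the regions, 1132 of the 1239 State 1 regions on 2L held at least 1 TSS (91.4%, 95% Wilson interval 89.7% to 92.8%). In the other states this share ran from 18.8% in State 7 (pericentromeric heterochromatin) to 42.3% in State 9, so the State 1 interval did not overlap that of any other state. The share varied with length within State 1. A TSS was present in 4 of 13 regions of 200 bp (30.8%, 12.7% to 57.6%), in 78.1% of those between 600 and 1000 bp, and in each of the 87 regions over 5 kb. Intervals cover counting error only and take regions as independent, which they are not.

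**Figure D1:**
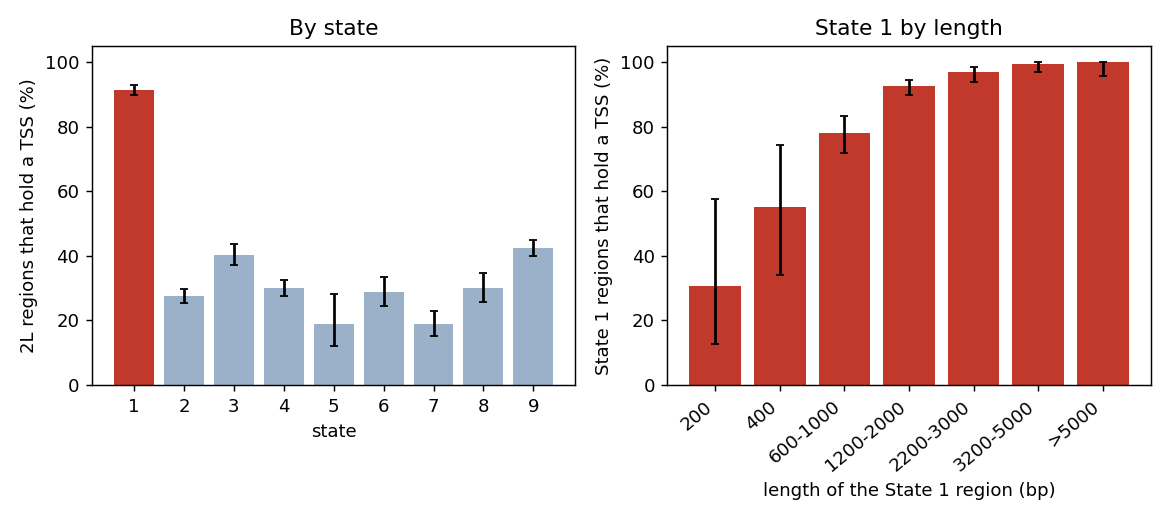
Share of 2L regions that held a protein-coding TSS, in percent, by state (left) and, within State 1, by region length in bp (right). Bars are shares and error bars 95% Wilson intervals. State 1 stands at 91.4% and the other states between 18.8% and 42.3%, and within State 1 the share runs from 30.8% at 200 bp to 100% over 5 kb.

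In the 459 of 1239 regions with exactly 1 TSS, State 1 reached farther downstream than upstream. A median of 264 bp lay upstream of it (quartiles 152 and 403 bp) and 994 bp downstream (757 and 1235 bp), and the downstream stretch was the longer in 414 (90.2%). Around all 2L TSSs, State 1 made up 38.1% of the regions over the start site, 28.9% at 1000 bp upstream and 26.9% at 1000 bp downstream. At 2000 bp it was the higher upstream, with 18.7% against 13.9% downstream. State 2 ran the other way, from 8.20% at the start site to 32.0% at 2000 bp downstream. State 9 stayed between 25.1% and 27.1% at these positions.

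**Figure D2:**
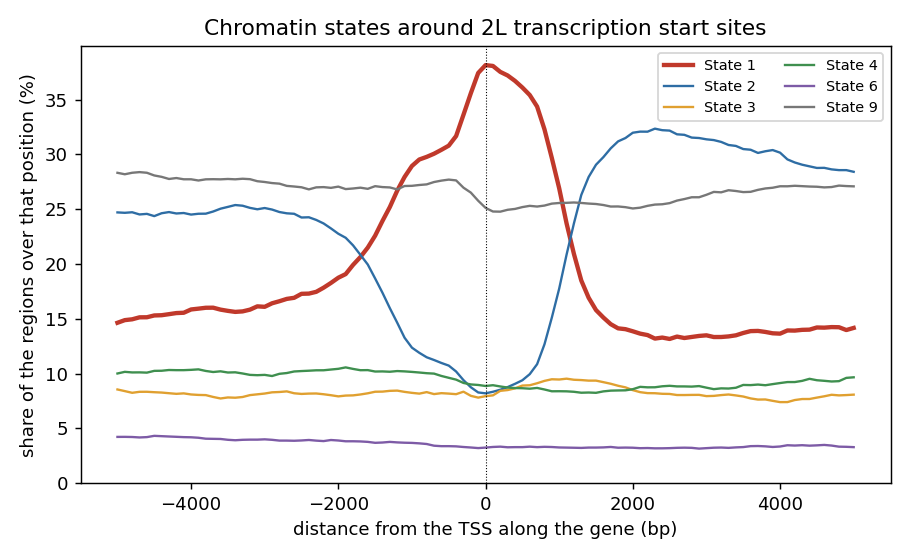
Share of the regions of each state over a position, in percent, against the distance from 2L TSSs in bp, with the direction of transcription to the right. Lines are States 1, 2, 3, 4, 6 and 9. State 1 peaks at the start site at 38.1% and State 2 is lowest there at 8.20%, reaching 32.0% at 2000 bp downstream.

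Many State 1 regions held TSSs of several genes, with 2 genes in 372 regions and 3 or more in 197. There were 518 regions with TSSs on both strands (41.8% of the 1239) and 614 with TSSs on a single strand (49.6%). Regions with TSSs on both strands had a median length of 3000 bp, against 1400 bp for the others. The longest, chr2L:4964763-4981962, spanned 17200 bp and held 15 TSSs of 12 genes, among them eIF3i (a translation initiation factor subunit), Polr1C (an RNA polymerase subunit), mRpL28 (a mitochondrial ribosomal protein) and Scox (cytochrome oxidase assembly). The second longest, chr2L:11986963-12003762, held 13 TSSs of 12 genes, including zuc, an endonuclease of piRNA production, escl, a Polycomb group gene, and Ada1-1 and Ada1-2. The region chr2L:6955363-6968962 held 12 TSSs of 7 genes, including Sumo and Coprox, an enzyme of heme synthesis.

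The 107 State 1 regions of 2L without a protein-coding TSS were placed in classes that overlap. Of these regions, 72 lay in the body of a coding gene, 40 were within 1 kb of a TSS and 12 held the start of a noncoding transcript. The share of the arm in such places was not measured, so these counts show no excess. Of the 107 regions, 28 began at or beyond 22 Mb, toward the centromere, where only 12 of 40 State 1 regions held a TSS (30.0%). Before 22 Mb the share was 93.4%.

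The lists of genes on 2L differed widely in whether their TSSs were in State 1. Across all 2657 protein-coding genes of the arm, 1117 had a TSS in State 1 (42.0%, 40.2% to 43.9%). A gene counted when any of its TSSs was in State 1. This share was 37.9% for genes with 1 TSS, 52.2% with 2 and 56.4% with 3 or more. The 42.0% is therefore not matched to lists whose genes have several TSSs. Some listed genes had only part of their TSSs in State 1: CycE (2 of 3), tkv (2 of 4), Mad (1 of 2) and dl (1 of 3). Cell cycle and replication genes were there in 10 of 10 cases: CycE, Cdk1, fzy, pim (securin), E2f2, RnrL (ribonucleotide reductase), Orc5, twe (the meiotic Cdc25 phosphatase), Mcm10 and Grip71. All 4 chromatin genes were there, namely the gene of the heterochromatin protein HP1a, the Polycomb group genes esc and escl, and the acetyltransferase gene chm. Ribosomal protein genes, taken as symbols starting with RpL or RpS, were there in 17 of 19 cases (89.5%, 68.6% to 97.1%). This rule also took in RpL7-like, which was in State 1, and RpS28-like. The exceptions, RpL5 and RpS28-like, had their first TSS in State 7 and no TSS in State 1. Here and below, a state other than State 1 named for a gene is that over its first TSS. His3.3A, which encodes H3.3, had both of its TSSs under 2 State 1 regions.

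Germline and niche genes were divided. Of 8 germline and piRNA genes, aub, loqs, zuc, squ and del had a TSS in State 1. The others, vas (States 4 and 9), piwi (State 7 in both regions) and Rbp9 (State 4 in both), did not. Genes of different lists can share a State 1 region, as aub did with RpL9 and zuc with escl. Of 5 JAK-STAT and BMP genes, the BMP receptor gene tkv, its transcription factor gene Mad and the pathway inhibitor gene Socs36E were in State 1, Socs36E in a region of only 400 bp. At its first TSS the JAK-STAT target chinmo (2 TSSs) was in State 6 (Polycomb) and the BMP ligand gene dpp (4 TSSs) in State 4 (active introns). None of their TSSs was in State 1. None of the 4 genes used to mark cyst and hub cells, tj, eya, esg and Fas3, had a TSS in State 1, and tj and eya were in State 6 in both regions.

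Developmental regulators were almost absent from State 1. Of 24 genes, including wg, salm, odd, slp1, nub, tup, mid and cad, only dl, the Dorsal transcription factor gene of the NF-kB family, had a TSS in State 1 (4.17%, 0.739% to 20.2%). Of 7 genes of late spermatogenesis, Mst36Fa was in State 1, whereas the protamine genes ProtA and ProtB were in States 8 and 9. All 111 replication-dependent histone genes were in a single State 7 region of 212800 bp, so 0 of 111 were in State 1. They share 1 state label and count as a single case, so no interval is given for them. The lists were chosen with earlier results of these data known, and each holds few genes, so they are given as a description.

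**Figure D3:**
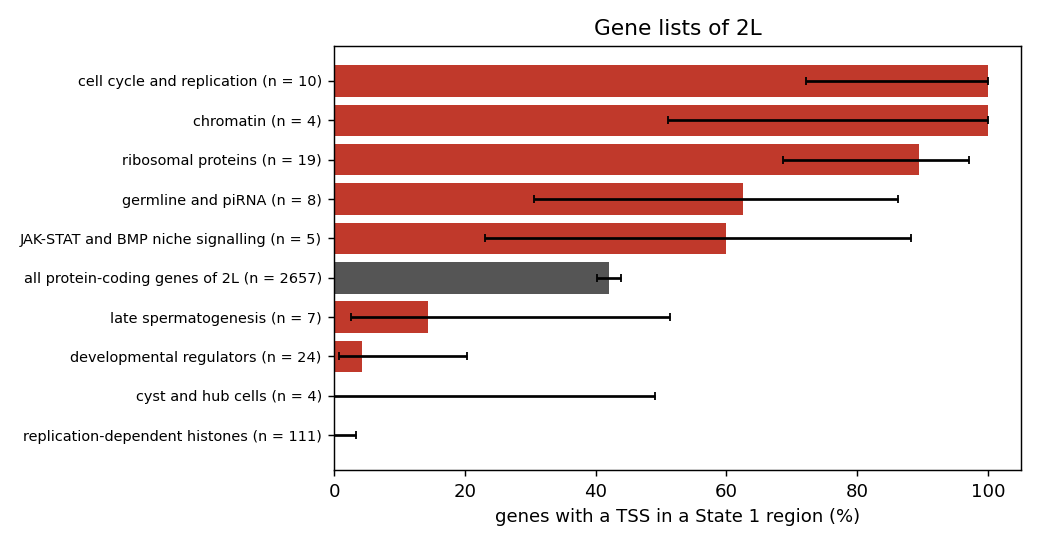
Share of genes with a TSS in a State 1 region of 2L, in percent, for each gene list (red) and for all protein-coding genes of the arm (grey). Numbers in brackets are genes and error bars are 95% Wilson intervals. The histone genes lie in a single region, so their error bar does not measure counting error. Cell cycle, chromatin and ribosomal protein genes lie above the 42.0% of all genes, and developmental regulators (4.17%) and the histone cluster (0) below it.

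Promoters in State 1 and outside it differed in sequence. Windows of 300 bases from 250 before each TSS were searched on both strands for 6 motifs, none of which contains another: TATCGATA for the DRE, GGTCACAC for the Motif 1 core, CAGCTG for the E-box, TATAAA for the TATA box, GAGAG for the GAGA element and TTCNNNGAA for the binding consensus of Stat92E, the transcription factor of the JAK-STAT pathway. A match is a description of the letters, not a bound site. Since the 111 TSSs of the histone cluster are near-identical copies, shares outside State 1 are given without them.

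The DRE was present at 16.7% of TSSs in State 1 (95% Wilson interval 14.8% to 18.7%, n = 1452), at 1.60% outside (1.14% to 2.24%, n = 2062) and at 7.98% of all TSSs in dm6 (n = 19276). The Motif 1 core was present at 14.9% (13.1% to 16.8%), 0.388% (0.197% to 0.764%) and 6.71%, and only 8 TSSs of 2L outside State 1 held it. At least 1 of these motifs was found at 29.4% of TSSs in State 1 and at 1.89% outside. As in the promoters of tkv and fzy, matches clustered near the start site. In State 1 the median first base was -38 for the DRE and -9 for the Motif 1 core. Of the DRE matches in State 1, 47.6% began in the 50 bases before the TSS.

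The other motifs gave smaller or no differences. The E-box was at 27.2% of TSSs in State 1 and 12.8% outside. GAGA was less frequent in State 1, at 23.1% (21.0% to 25.3%) against 37.0% (34.9% to 39.1%), but this held for TSSs under 2 State 1 regions and not for those under 1. TATAAA anywhere in the window was at 47.0% and 43.0%, with overlapping intervals and a direction that turned in a narrower window. At -40 to -20 on the strand of the gene, the place of a TATA box, it was at 2.00% in State 1 (1.39% to 2.85%) and 9.17% outside (8.00% to 10.5%), and with the histone cluster included the latter was 11.4%. The Stat92E consensus was at 9.50% and 9.94%, also with overlapping intervals. The median GC content of the windows was 35.7% in State 1 and 40.0% outside, and its part in the motif shares was not tested.

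TSSs under 2 State 1 regions held the DRE or the Motif 1 core more often than those under 1. The shares were 31.9% (29.4% to 34.6%, n = 1222) and 16.1% (11.9% to 21.4%, n = 230), and the intervals did not overlap. GAGA went the other way, at 20.5% (18.4% to 22.9%) under 2 regions and 36.5% (30.6% to 42.9%) under 1, the latter close to the 37.0% outside State 1. A TATA box at -40 to -20 was at 1.55% (0.998% to 2.42%) and 4.35% (2.38% to 7.82%), with intervals that met.

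**Figure D4:**
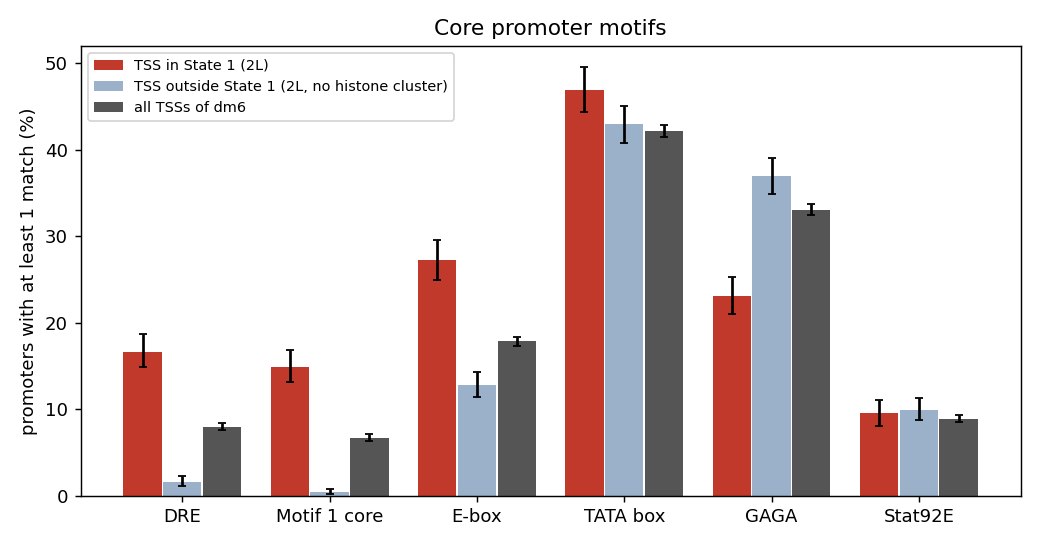
Share of promoters with at least 1 match to each motif, in percent, for 2L TSSs in State 1 (red), 2L TSSs outside it without the histone cluster (blue) and all TSSs of dm6 (grey). Error bars are 95% Wilson intervals. The DRE (16.7% and 1.60%) and the Motif 1 core (14.9% and 0.388%) differ most in ratio, and GAGA is lower in State 1.

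The tagged histones at these regions could be described only as a pool. The deposited read table has 12 columns without names, so no library or group could be told apart, and reads were summed over the 12 columns and divided by the region length. The sum has no replicate error, and deeper libraries weigh more. The rows of the table were matched to the list through regions nested within larger ones: in all 22074 nested pairs the inner region held no more reads than the outer, against 43.2% and 42.4% when the rows were moved by 1. State 1 regions held 8601110 of the 114159198 reads counted over the 5 arms, with a median of 945 reads per region. Values for H3, H3A31S, H3.3 and H3.3S31A separately are not given for this reason.

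On 2L, State 1 regions held 632 reads per kb, 1.14 times the 552 reads per kb of the other states. By region the medians were 636 (quartiles 561 and 723) and 592 (540 and 650) reads per kb, so the distributions overlapped widely. Over summed length State 3 held 619 reads per kb and State 7 held 391. By the median of regions State 3 was slightly above State 1, at 643, and State 7 stood at 602. In regions with at least 95% single-copy sequence State 7 held 640 and State 1 held 648. State 1 exceeded the other states in 21 of 23 windows of 1 Mb, with a median ratio of 1.13 (range 0.908 to 1.24).

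Regions next to each other were compared in the same way. A region can enter several pairs, and pairs share bases. The intervals take pairs as independent, which they are not. Of 1878 pairs of a State 1 region and an abutting State 2 region on 2L, State 1 had the higher density in 1156 (61.6%, 59.3% to 63.7%), with a median difference of 37.7 reads per kb, at nearly equal median GC content (45.5% and 45.6%). Against abutting State 9 regions it was higher in 184 of 299 (61.5%, 55.9% to 66.9%). For State 3 the share was 54.8% (50.3% to 59.2%) of 478 pairs. For States 4, 5, 6, 7 and 8, with 16 to 133 pairs each, it was 52.6% to 62.5%. Each of those intervals included 50%.

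Density was mostly lower where GC content was higher, although State 1 had both the higher GC content and the higher density. State 1 regions of 2L had a median GC content of 44.9%, against 41.6% in the other states. From the bin of 35% to 40% GC to that of 50% to 55%, density ran from 713 to 516 reads per kb in State 1 and from 562 to 478 in the other states. The 32 State 1 regions at 30% to 35% held 558, against 599 in the other states. Within bins of GC content the ratio of State 1 to other states was 0.932 at 30% to 35%, 1.27 at 35% to 40%, 1.24 at 40% to 45%, 1.12 at 45% to 50% and 1.08 at 50% to 55%. The part of base composition in the count was not tested beyond these bins.

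Density was also low in regions of repeated sequence. Single-copy sequence was measured as the share of 50-base words that occur at 1 place in dm6. The 1192 State 1 regions of 2L with at least 95% single-copy words ranged from 322 to 1065 reads per kb, with 648 for the set, and the ratio to other states with the same limit was 1.10. The 26 regions under 50% held 92.0 reads per kb. Reads of low mapping quality had been removed before counting, so counts in repeated sequence cannot be read as a measure of the tagged histones.

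The regions with the fewest reads were of this kind. There were 19 State 1 regions under 100 reads per kb on 2L, 6 of them with 0 reads, and the highest share of single-copy words among them was 20.7%. Of these, 14 began beyond 22 Mb and held no TSS. The other 5 were at chr2L:7976963-7984162, with a TSS of Snoo, a SMAD corepressor gene, and CG7231 (36.8 reads per kb), at chr2L:20448963-20451562 and a region inside it, with CG31683 and CG31687 (14.6 and 15.9 reads per kb), and at chr2L:20457963-20460562 and a region inside it, with Cdc23, a subunit of the anaphase-promoting complex, and CG18858 (36.2 and 39.2 reads per kb). The long region with zuc and escl stood at 365 reads per kb, with 58.6% single-copy words. The State 7 region of the histone cluster, at 212 reads per kb, had 29.8%.

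At the other end, the 4 densest regions of at least 1000 bp on 2L all had 100% single-copy words. This does not set them apart, since the median of all State 1 regions of 2L was also 100%. The region chr2L:2884563-2886962, with TSSs of NTPase and lilli (a subunit of the super elongation complex), held 1052 reads per kb, and the one inside it 1041. The next were at brat, a translational repressor gene (chr2L:19157963-19158962, 997 reads per kb) and ova (chr2L:10230763-10231762, 994). Their GC content was 36.3% to 47.5%.

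Among the listed genes, pooled density varied within each list. The regions of the 17 ribosomal protein genes ranged from 494 reads per kb at RpL40 to 857 at RpS13, with a median of 634. Those of the 10 cell cycle genes ranged from 573 at Orc5 to 777 at Cdk1, with a median of 669, and both medians were inside the quartiles of all State 1 regions of the arm. The region of tkv, whose sequence is printed above, held 911 reads per kb over 1400 bp. The region of His3.3A held 664 reads per kb and that of piwi, in State 7, held 759.

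Promoter type was not accompanied by a large difference in density. Regions with a DRE (302) had a median of 654 reads per kb (quartiles 582 and 733), regions with the Motif 1 core (285) had 619 (555 and 685), and regions with a TSS and neither motif (606) had 640 (568 and 736). These quartiles overlapped. Regions with TSSs on both strands had a median of 631 and those with TSSs on a single strand 647.

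On the other arms a correspondence of the listed positions to dm6, the assembly of the reads, was not established. At the listed intervals there, the ratio of State 1 to the other states was 1.01 on 2R, 1.10 on 3L, 1.01 on 3R and 1.02 on X. State 1 was higher in 14 of 21 windows of 1 Mb on 2R and 23 of 24 on 3L. On 3R it was higher in 19 of 28 and on X in 8 of 23. Single states differed from this pool. On 3L State 1 was the densest state, at 606 reads per kb. On 2R it held 501, below State 9 (527) among others and above State 7 (253). On 3R it held 535, below State 4 (548) among others and above State 7 (437). On X it held 296, below States 2 (432), 4 (301) and 9 (298). The list ended 528350 bp before the end of the dm6 arm on 2L, and 4140249, 3566627, 4174329 and 1119977 bp before it on 2R, 3L, 3R and X. The genome build of the list is not stated, and only on 2L were its positions taken to correspond to dm6. On these 4 arms its states and the reads counted at the same numbers can refer to different sequence. The densities, ratios and orders of states there therefore belong to the listed intervals only. They cannot be read as a weaker or stronger State 1 result than on 2L.

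At the listed intervals, State 1 regions on X held 296 reads per kb, 0.525 times the 564 of the autosomal arms. The other states had a ratio of 0.545. Males carry a single X, and the part of copy number in this ratio was not tested.

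**Figure D5:**
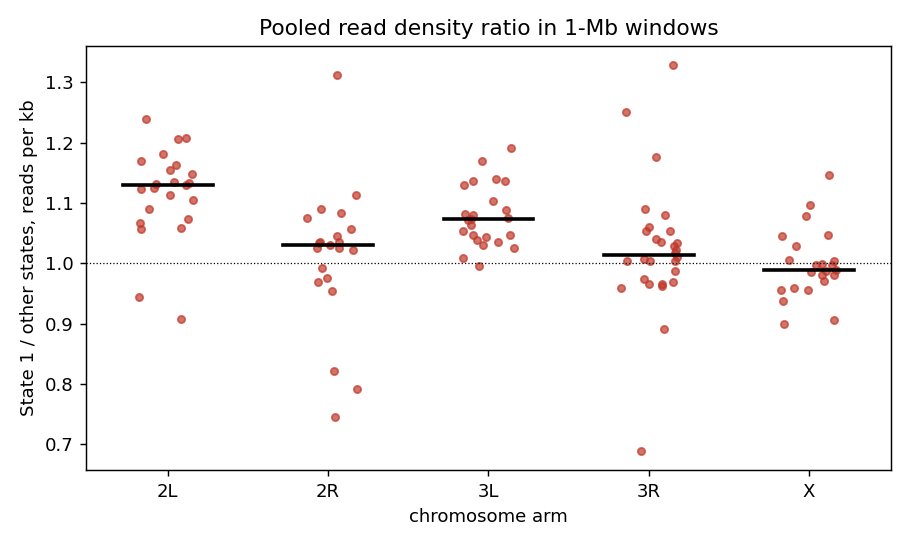
Ratio of pooled read density in State 1 to that in the other states, per window of 1 Mb, for each chromosome arm. Points are windows, bars are medians and the dotted line is a ratio of 1. On 2L 21 of 23 windows are above 1 and on X 8 of 23, and the arms other than 2L are shown at the listed intervals.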

How the data were processed

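ChIC libraries of tagged histones were made from 12 samples of testis tumors, in 4 groups of 3. By the study's methods, Bowtie2 was used by the authors for alignment to dm6, redundant reads and those with a mapping quality of 10 or less were discarded, and the rest were counted in the modENCODE regions. The tool used for counting is not given in the sources used here. The authors deposited whole-number read counts per region, with no normalization and no column names, so the 12 columns were used only as their sum. The state list was deposited as positions with a state number.

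The members, gene lists, motifs and comparisons were chosen with earlier results of these data known. Genes were named from fixed lists on 2L. Single regions were named by rule: the 5 longest, the 5 densest and 5 least dense of at least 1000 bp, and the 5 with most TSSs. A region among these is not reported here. The 5 low regions with genes and the printed promoters were chosen after their values were seen. TSSs came from the Ensembl annotation of dm6 and bases from RefSeq. Shares have 95% Wilson intervals. Regions share bases and are not replicates, so no test was run. Alternatives covered region length, TSS choice, motif window and strand, and regions with few reads or repeated sequence. Functions were tested on simulated data with planted answers. Python 3.11.15 was used with numpy 2.4.6, pandas 2.3.3 and matplotlib 3.10.9.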

Additional observations from a re-analysis of the deposited data

How the results depend on the processing

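No paired analysis was possible because replicate numbers are missing from the unnamed read columns, and no replicate was left out for the same reason. The pooled sum gives no error between libraries.

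The number of State 1 regions was 7080 with repeated coordinates counted once and 6999 with a minimum of 400 bp. The share of 2L TSSs in State 1 was 33.2% at 500 bp upstream, 37.9% at 500 bp downstream and 28.8% with the TSSs of all annotated genes. The share of 2L State 1 regions with a TSS was 93.4% with a margin of 200 bp, 94.8% for regions of at least 1000 bp and 86.6% with 1 TSS per gene. Before 22 Mb, an alternative chosen after seeing the data, it was 93.4%.

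At the listed intervals, pooled density in State 1 was 507 reads per kb over the 5 arms and 561 as the median of regions. It was 507 for regions of at least 1000 bp and 502 without the densest 1% of regions. By arm it was 632 (2L), 501 (2R), 606 (3L), 535 (3R) and 296 (X). The ratio of State 1 to other states on 2L, 1.14 in the main calculation, was 1.07 from medians and 1.13 without the densest 1%. In settings chosen after seeing the data it was 1.14 before 22 Mb, 1.15 without regions under 100 reads per kb and 1.10 in regions with at least 95% single-copy words. It stayed above 1 in all of these.

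With a window from 100 bp before the TSS to 50 bp after it, the share in State 1 and outside it (histone cluster included) was 13.4% and 0.598% for the DRE, 20.4% and 6.17% for the E-box, 19.8% and 26.2% for the TATA box, 14.5% and 23.3% for GAGA and 4.48% and 4.69% for Stat92E. For the Motif 1 core it was 12.6% in State 1. On the strand of the gene alone it was 11.2% for the Motif 1 core in State 1, 30.1% and 34.0% for the TATA box and 11.98% and 21.95% for GAGA. The TATA box thus changed from 47.0% and 45.6% in the main calculation to lower in State 1 than outside.

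Chosen after seeing the data, 1 TSS per gene gave 19.4% for the DRE in State 1, 50.2% for the TATA box outside State 1, and 20.1% and 35.1% for GAGA. Without the histone cluster the TATA box outside State 1 was at 43.0%. In every one of these settings the DRE, the Motif 1 core and the E-box stayed more frequent in State 1 and GAGA less frequent. Depth limits single regions little, with a median of 1165 reads on 2L, but short and repeated regions hold few reads.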
